A study of Homo sapiens with 20 samples.

Results

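The 50 genes described here make and use the reducing power of the cell. They encode the enzymes of glutathione synthesis and recycling, glutathione peroxidases and transferases, thioredoxins and peroxiredoxins, quinone and carbonyl reductases, iron and heme proteins, NADPH-supplying enzymes and the regulators NFE2L2, KEAP1 and BACH1. The genes were chosen by name, as a list of 10 functional arms, with earlier results of these data known. Of the 50, 49 were identified among the 57500 genes counted in each of the 20 RNA-seq libraries. SOD2, the mitochondrial superoxide dismutase, was not analysed here because no identifier in the count tables was paired with its symbol. The cells were NTERT keratinocytes, a human skin line immortalized with telomerase and maintained in low-calcium EpiLife medium with keratinocyte growth supplement. Before use they were differentiated into sheets in EpiLife medium with added calcium chloride and fetal bovine serum. WT cells carried a control guide RNA and GCN2KO cells were an edited pool, not a clone, made by CRISPR/Cas9 with a guide against exon 2 or exon 12 of EIF2AK4, the gene of the eIF2 kinase GCN2. Which of the guides made the sequenced pool was not stated. Each genotype was left unwounded or subjected to high-density wounding (HDW), a grid of parallel scratches made with pipette tips, and RNA was taken after 6 h from 5 replicates per group. The study counts the 5 per group as biological replicates, and neither it nor the labels says how far apart the platings were, so the p-values measure the spread between these samples.

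Cells hold peroxides and free iron in check through linked systems. Glutathione and thioredoxin are the electron carriers, glutathione reductase and thioredoxin reductase recharge them with electrons from NADPH, and peroxidases spend them on hydrogen peroxide and lipid peroxides. Ferritin stores iron, the transferrin receptor brings it in, ferroportin lets it out and heme oxygenase releases it from heme. Much of this set is under the transcription factor NRF2, encoded by NFE2L2, which KEAP1 marks for destruction and which competes with the repressor BACH1 at antioxidant response elements. Keratinocytes at a wound edge are known to meet reactive oxygen species.

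EIF2AK4 read 3980 to 4555 normalized read counts in the 10 WT libraries and 806 to 962 in the 10 GCN2KO libraries, so every library matched its genotype label. A normalized read count is the raw count divided by the relative size of its library after TMM scaling. Total counts per library ran from 14083504 to 34611570, and the 49 genes took 0.712 to 0.875% of counts in the WT libraries and 0.933 to 1.14% in the GCN2KO libraries. Keratinocyte markers summed to 10854 to 16532 CPM, against 22.1 to 37.1 for fibroblast markers, which were almost all COL1A1, and at most 4.03 for leukocyte, 3.52 for melanocyte and 0.643 for endothelial markers. Within the keratinocyte list, IVL of differentiating cells averaged 110.3 CPM in WT and 382 in GCN2KO unwounded, and 153 and 608 after HDW. In the same order, KRT14 of basal cells averaged 2234 and 1212, and 2508 and 1500.1. KRT5, also of basal cells, went the other way, at 8245 and 11350, and 9348 and 13659. TP63 averaged 424 and 288, and 374 and 284. KRT10 averaged 44.5 and 50.5, and 36.1 and 44.7. KRT1 was at low counts, with 0.791 and 0.385, and 0.692 and 0.394. The group means of these markers thus differed between genotypes in both directions, and their part in the genotype differences was not tested. The mitochondrial share of counts was 0.664 to 0.718% in GCN2KO HDW and 0.405 to 0.633% elsewhere, and its part in the results was not tested. Some libraries held many of the extreme values of their groups. GCN2KO HDW replicate 5 was lowest for 20 of the 49 members and highest for 18, WT HDW replicate 2 lowest for 16 and highest for 16, WT unwounded replicate 1 lowest for 23, GCN2KO unwounded replicate 3 highest for 23, and GCN2KO unwounded replicate 1 lowest for 14 and highest for 10. For the DE members, the change after HDW in GCN2KO was also computed without GCN2KO unwounded replicate 1 and GCN2KO HDW replicate 5 together, a pair chosen after seeing the data. In bulk RNA a difference in the share of a kind of cell and a difference in RNA per cell cannot be told apart.

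Both comparisons of genotype asked how these genes differed between GCN2KO and WT cells, before and after wounding. Loss of GCN2 and any other difference between the edited pool and the control cells cannot be told apart here. In unwounded cells, 25 of the 49 members were higher in GCN2KO and 12 lower at an adjusted p of at most 0.05, against 33.4% and 33.1% of the 15348 genes tested. The 12 members that also reached a log2 fold change of 1 in size, called DE genes here, comprised 11 higher and 1 lower, where 8.21% of all genes were DE and higher, 8.22% DE and lower and 16.4% DE in all. After HDW, 22 members were higher and 14 lower, against 35.9% and 35.8% of 15855 genes, and 10 were DE, 9 of them higher, against 14.9% of all genes, 7.1% higher and 7.83% lower. The median log2 fold change of the members was 0.20 unwounded and 0.04 after HDW, while the median over all genes was 0.00 in both. The comparisons shared no samples, and 20 members passed as higher in both, 10 as lower in both and 0 in opposite directions, while over the 15238 genes tested in both these shares were 26.7%, 26.9% and 1.94%. The values of GCN2KO and WT did not overlap for 22 members that were higher and 9 that were lower in unwounded cells, where 26.3% and 27.0% of all genes separated in that way. After HDW 19 were separated upward and 10 downward, against 27.9% and 29.3% of all genes. The counts in each direction were thus above the all-gene shares for higher members and below them for lower members. As shares of the members they were 51.0% higher and 24.5% lower unwounded, and 44.9% and 28.6% after HDW. The members were chosen with earlier results of these data known, so these counts describe the list and are not a test.

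**Figure D1:**
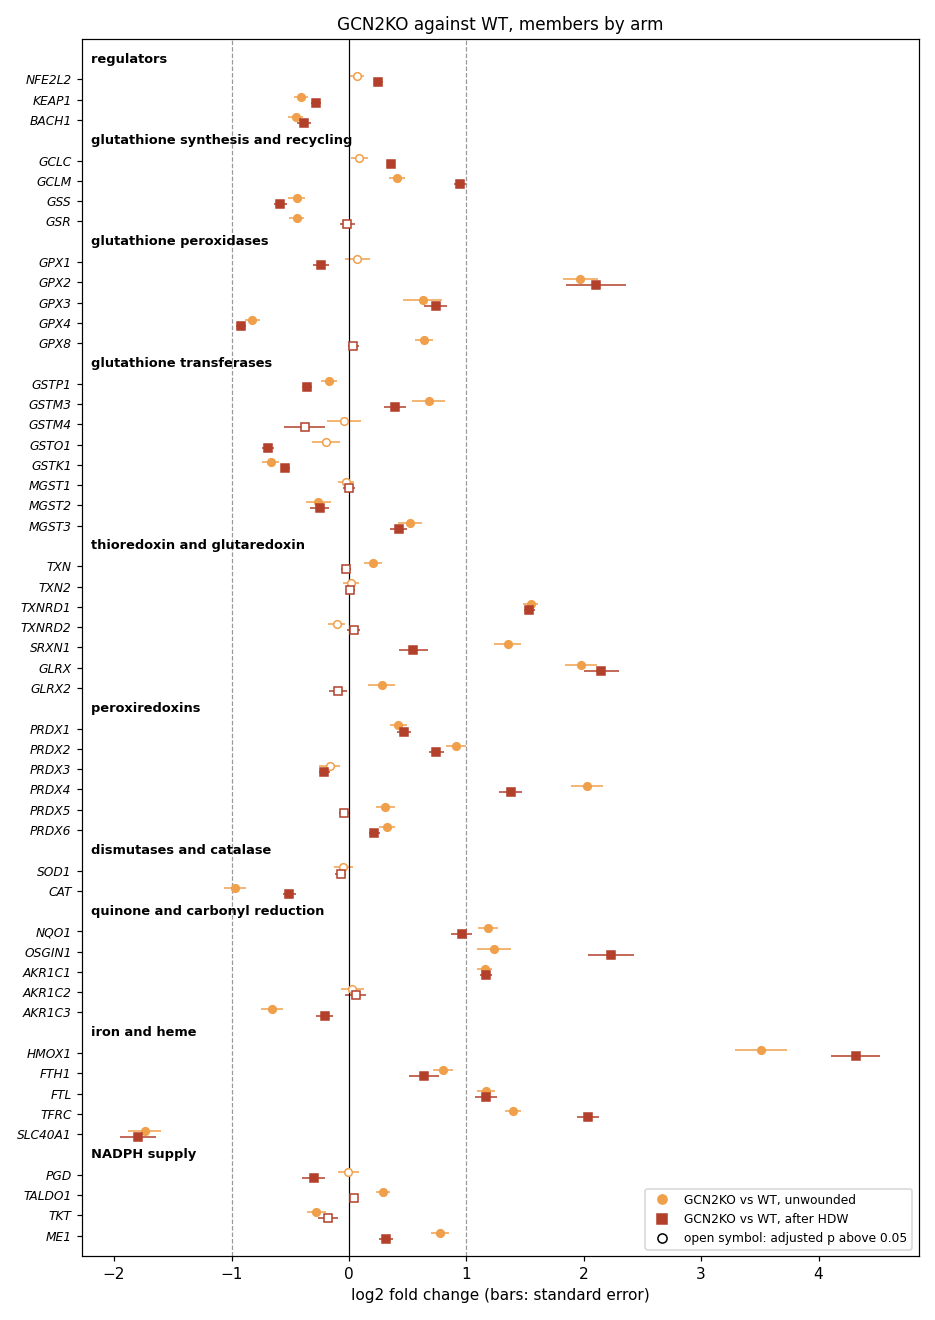
Log2 fold change of GCN2KO against WT for the 49 members, grouped by arm, in unwounded cells (circles) and after HDW (squares). Bars are standard errors from edgeR with 5 libraries per group, open symbols did not pass an adjusted p of 0.05, and dashed lines mark a log2 fold change of 1 in size. The iron and heme arm holds the extremes, from HMOX1 at 4.32 to SLC40A1 at -1.80 after HDW.

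The iron and heme arm held the largest difference in each direction among the members. In both states HMOX1, FTH1, FTL and TFRC were higher in GCN2KO and SLC40A1 was lower. HMOX1 (ENSG00000100292, chr22:35380361-35394214 of GRCh38) encodes heme oxygenase 1, which breaks heme down to biliverdin, carbon monoxide and iron. Its normalized read counts in WT unwounded replicates 1 to 5 were 117, 114, 103, 119 and 94.5, and 91.0, 94.2, 90.3, 94.7 and 70.9 after HDW. GCN2KO unwounded replicates read 661, 1573, 1201, 1729 and 1024, and the HDW replicates 2163, 1966, 1688, 2045 and 950.0. Every GCN2KO library lay above every WT library, and the lowest GCN2KO values were those of unwounded replicate 1 and HDW replicate 5. The log2 fold change of GCN2KO over WT was 3.51 ± 0.22 unwounded (11.4-fold, adjusted p = 1.28e-09) and 4.32 ± 0.21 after HDW (19.9-fold, adjusted p = 9.63e-10), each with its standard error from edgeR's quasi-likelihood test. HDW in WT gave -0.30 (adjusted p = 0.0311), and this call was lost in 7 of 17 other settings, among them without WT unwounded replicates 1, 2 or 4 or WT HDW replicate 5. In GCN2KO the change was 0.52 (adjusted p = 0.124) and the interaction 0.81 (adjusted p = 0.0893). Without GCN2KO unwounded replicate 1 and GCN2KO HDW replicate 5 these were 0.52 (adjusted p = 0.0299) and 0.81 (adjusted p = 0.00509).

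FTL (ENSG00000087086, chr19:48965309-48966879) and FTH1 encode the light and heavy chains of ferritin, the iron store. FTL read 12969, 15025, 13189.6, 15239 and 14279.9 in WT unwounded replicates 1 to 5 and 10845, 14346, 13179.9, 10986 and 12516 in WT HDW. The GCN2KO values were 28346, 31672, 35329.9, 33364 and 29831 unwounded and 31982, 27939, 28078, 28739 and 22211 after HDW, so the lowest GCN2KO value lay above the highest WT value. GCN2KO exceeded WT by a log2 of 1.17 ± 0.08 unwounded (adjusted p = 2.15e-09) and 1.17 ± 0.09 after HDW (adjusted p = 8.7e-08). FTH1 moved the same way, from 36988 ± 3442 (SD, n = 5) in WT to 64359.6 ± 4805 in GCN2KO unwounded cells, a log2 fold change of 0.80 (adjusted p = 3.42e-07), and of 0.64 after HDW (adjusted p = 0.000412). Of the FTH1 exonic length, 63.2% is shared with BEST1 on the opposite strand, and the strand setting of the counting was not stated.

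TFRC (ENSG00000072274, chr3:196012511-196082153) encodes the transferrin receptor. WT unwounded replicates read 6506, 6620.1, 6959, 7069 and 6765 and WT HDW replicates 3704, 5342, 4058, 3746 and 3677, where replicate 2 stood above the other 4. GCN2KO read 16154, 17993, 20053, 17065 and 17924 unwounded and 17618, 16837, 17063, 17586 and 15279 after HDW. The groups of the genotypes did not overlap in either state, and the GCN2KO values before and after HDW did. The genotype difference was a log2 of 1.40 ± 0.07 unwounded (adjusted p = 8.21e-11) and 2.04 ± 0.09 after HDW (adjusted p = 6.41e-10). HDW lowered TFRC in WT by 0.73 on the log2 scale (adjusted p = 3.44e-06) while GCN2KO gave -0.07 (adjusted p = 0.493), and the interaction of genotype and HDW was 0.64 ± 0.12 (adjusted p = 0.000249).

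SLC40A1 (ENSG00000138449, chr2:189560590-189583758) encodes ferroportin, the only known exporter of iron from cells. It fell from 103, 116, 133, 98.5 and 117 in WT unwounded replicates to 46.4, 50.5, 62.4, 45.9 and 51.9 in WT HDW. GCN2KO replicates read 33.0, 30.7, 39.5, 29.4 and 35.5 unwounded and 14.2, 16.7, 13.4, 16.7 and 13.4 after HDW. The 4 groups did not overlap one another. Both steps were of DE size: GCN2KO lay below WT by 1.74 on the log2 scale unwounded (adjusted p = 1.69e-08) and 1.80 after HDW (adjusted p = 1.29e-07), and HDW lowered it by 1.14 in WT (adjusted p = 1.58e-06) and 1.18 in GCN2KO (adjusted p = 0.000645). The interaction was -0.05 ± 0.19, with a 95% interval of -0.42 to 0.32 and an adjusted p of 0.879. SLC40A1 was the member that was DE in all 4 pairwise comparisons.

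Transcripts of 4 of these 5 genes share a sequence feature. The arm was chosen by name as iron and heme genes, so the count of carriers describes the list and is not a test. Iron regulatory proteins bind a stem-loop with a CAGTGN loop, a paired stem of 5 bases on each side and an unpaired C below it. This pattern was searched on the sense strand of 20046 canonical protein-coding transcripts of GENCODE 44. The last loop base had to be A, C or T, and G-T pairs were allowed in the stem. The pattern was present in 190 of 20020 genes (0.949%) and in 4 of the 49 members, which were FTH1, FTL, SLC40A1 and TFRC. In FTL, FTH1 and SLC40A1 it lies in the 5' UTR, where binding is known to hold back translation, and in TFRC in the 3' UTR, where binding is known to protect the mRNA. The sites are shown because the genes that carry them held opposite directions in GCN2KO, and the capitals mark the loop.
FTL 5' UTR, chr19:48965338-48965360, plus strand: ttgcttcaaCAGTGTttggacgg
FTH1 5' UTR, chr11:61967577-61967599, minus strand: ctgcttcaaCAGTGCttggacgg
SLC40A1 5' UTR, chr2:189580664-189580686, minus strand: cttcagctaCAGTGTtagctaag
TFRC 3' UTR, chr3:196050982-196051004, minus strand: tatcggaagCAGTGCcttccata
TFRC 3' UTR, chr3:196050578-196050600, minus strand: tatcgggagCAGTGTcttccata
TFRC 3' UTR, chr3:196050513-196050535, minus strand: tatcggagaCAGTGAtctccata
TFRC 3' UTR, chr3:196050466-196050488, minus strand: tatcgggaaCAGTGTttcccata
Both ferritin mRNAs and the TFRC mRNA were higher in GCN2KO and the SLC40A1 mRNA was lower, so carriers of a 5' UTR site moved in both directions. A match of this pattern is a description of the letters and not evidence of binding in these cells.

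Among the quinone and carbonyl reductases, 3 of 5 members were DE and higher in unwounded GCN2KO, against 8.21% of all genes, and 2 of 5 after HDW, against 7.1%. NQO1 (ENSG00000181019, chr16:69706996-69726668), an NADPH quinone reductase, read 1802, 2354, 1936, 2335 and 2159 in WT unwounded replicates 1 to 5 and 1534, 2254, 1957, 1609 and 1770.4 in WT HDW. It read 5070.4, 4569, 4785, 4242 and 5308 in GCN2KO unwounded and 3307, 3575, 3399, 3656 and 3820.2 in GCN2KO HDW, and all GCN2KO values lay above all WT values. The log2 fold change was 1.18 ± 0.08 unwounded (adjusted p = 4.7e-09) and 0.96 ± 0.09 after HDW (adjusted p = 2.69e-07), just under the DE size. HDW lowered NQO1 in GCN2KO by 0.42 (adjusted p = 0.00189), whereas the WT value of -0.22 did not pass (adjusted p = 0.0682) and the interaction was -0.22 (adjusted p = 0.225). An antisense gene shares 19.4% of its exonic length.

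OSGIN1 (ENSG00000140961, chr16:83931311-83966332), an oxidative stress-induced growth inhibitor, was a low-count gene with 69.6, 64.2, 60.4, 73.4 and 58.8 normalized reads in WT unwounded replicates and 37.1, 42.1, 48.1, 36.9 and 42.4 in WT HDW. GCN2KO read 109, 158, 170.2, 183 and 141 unwounded and 245, 213, 190.4, 219 and 107 after HDW. The genotypes did not overlap in either state, and after HDW replicate 5 was the lowest of GCN2KO by a wide margin. GCN2KO exceeded WT by 1.23 ± 0.15 unwounded (adjusted p = 1.58e-06) and 2.23 ± 0.20 after HDW (adjusted p = 1.98e-07). OSGIN1 fell by 0.65 after HDW in WT (adjusted p = 0.000509) and stood at 0.36 in GCN2KO (adjusted p = 0.177), or 0.42 without GCN2KO unwounded replicate 1 and GCN2KO HDW replicate 5 (adjusted p = 0.0266). Its interaction of 1.00 ± 0.26 (adjusted p = 0.00672) was the only one of DE size among the members, and it ran from 0.90 to 1.16 over 27 other settings, all of which it passed.

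The neighbouring aldo-keto reductases, which reduce steroids and reactive carbonyls, did not move together. AKR1C1 (ENSG00000187134, chr10:4963253-4983283) read 2019, 1968, 1912, 2189.8 and 2061 in WT unwounded and 1453, 1377, 1396, 1286 and 1393 in WT HDW. In GCN2KO it read 4059.8, 4499, 4668, 4412 and 4921 unwounded and 2917, 3409.8, 2899, 3232 and 3048 after HDW, above WT by 1.16 ± 0.07 (adjusted p = 4.36e-10) and 1.17 ± 0.05 (adjusted p = 3.75e-10) in these states, without overlap. AKR1C2 averaged 425 ± 56.1 in WT and 435 ± 49.0 in GCN2KO unwounded cells (SD, n = 5), a log2 difference of 0.03 with a 95% interval of -0.17 to 0.22. AKR1C3 (ENSG00000196139, chr10:5035354-5107686) went the other way, with 2120.4, 1954, 2351, 1846 and 2185 in WT unwounded and 1017, 773, 856, 901 and 984 in WT HDW replicates. GCN2KO replicates read 1354, 1149.6, 1482, 1089 and 1535 unwounded and 757, 791, 714, 784 and 878 after HDW, lower than WT by 0.66 unwounded (adjusted p = 1.74e-05), without overlap. After HDW the genotypes overlapped and the difference was -0.21 (adjusted p = 0.0228), a call that was lost in 4 of 17 other settings, among them without WT HDW replicates 1 or 5 or GCN2KO HDW replicate 3. HDW lowered all 3 genes in both genotypes, AKR1C1 by 0.56 in WT and 0.53 in GCN2KO, AKR1C2 by 0.67 and 0.63, and AKR1C3 by 1.21 and 0.74 on the log2 scale. AKR1C3 in WT was of DE size (adjusted p = 4.72e-09). AKR1C1 and AKR1C2 are near-identical and AKR1C3 is a more distant copy, and only uniquely aligned reads were counted, so reads may be split between them unevenly.

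**Figure D2:**
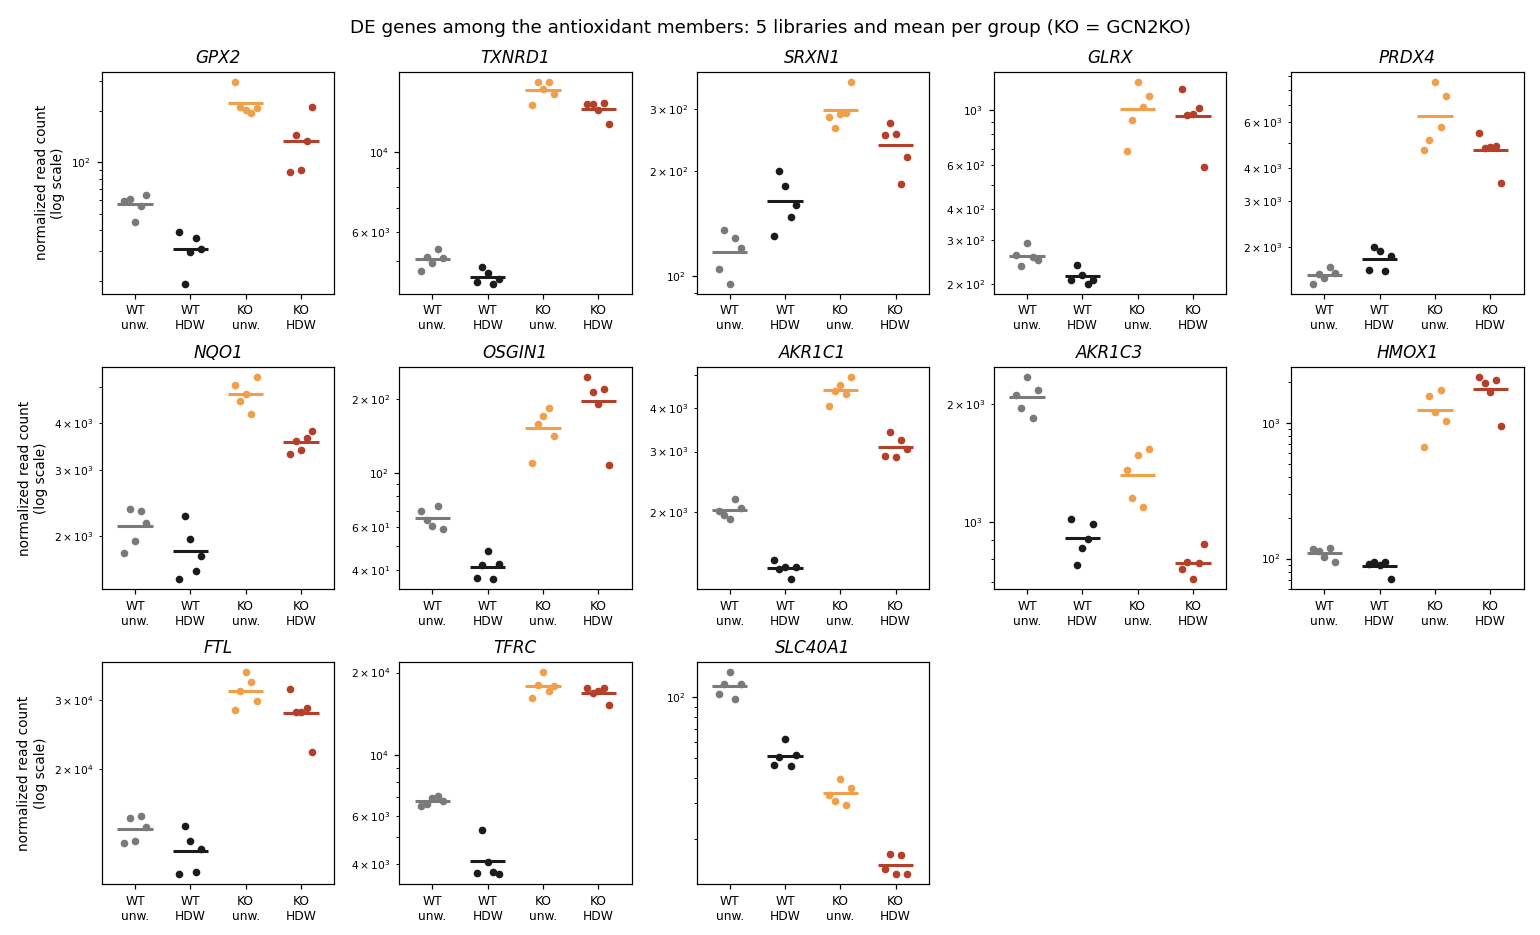
Normalized read counts, on a log axis that differs between panels, of the 13 members that were DE in at least 1 comparison. Points are the 5 libraries of a group in replicate order and lines are group means. In 11 of the panels both GCN2KO groups lie at a higher mean than both WT groups, and in SLC40A1 all 4 groups are separate.

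In the thioredoxin and glutaredoxin arm, 5 of 7 members were higher in unwounded GCN2KO, 3 of them DE, and none was lower, against 33.4%, 8.21% and 33.1% of all genes. After HDW 3 of 7 were higher, against 35.9%, and none lower, against 35.8%. TXNRD1 (ENSG00000198431, chr12:104215779-104350307), the cytosolic thioredoxin reductase, read 4692, 5141, 4950.0, 5392 and 5109 in WT unwounded and 4395, 4809, 4639, 4337 and 4458 in WT HDW replicates. GCN2KO read 13412, 15523, 14893, 15543 and 14362 unwounded and 13544, 13555, 13049, 13646 and 11899 after HDW, and the genotypes lay far apart with a small spread. The difference was 1.55 ± 0.07 unwounded (2.92-fold, adjusted p = 2.2e-11), and the interaction with HDW was -0.01 with a 95% interval of -0.16 to 0.15. TXN, its substrate thioredoxin, differed by 0.20 unwounded (adjusted p = 0.0278), a call kept in 11 of 17 other settings, and by -0.03 after HDW (adjusted p = 0.573). The mitochondrial partners TXN2 and TXNRD2 stood at 0.02 and -0.11 unwounded, with adjusted p values of 0.835 and 0.234.

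GLRX (ENSG00000173221, chr5:95751319-95822726) encodes glutaredoxin, which takes glutathione off proteins. WT replicates read 262, 236, 292, 257 and 249 unwounded and 208, 238, 218, 200.4 and 207 after HDW. GCN2KO replicates read 689, 915, 1302, 1032 and 1146 unwounded and 1225, 957, 969.5, 1018 and 594 after HDW, with the lowest values again in unwounded replicate 1 and HDW replicate 5. The genotypes did not overlap, and GCN2KO was higher by 1.98 ± 0.14 unwounded (3.94-fold, adjusted p = 3.54e-09) and 2.15 ± 0.15 after HDW (4.44-fold, adjusted p = 2.24e-08). HDW in GCN2KO gave -0.09 (adjusted p = 0.748), or -0.07 without both of these libraries (adjusted p = 0.677). GLRX2, the mitochondrial glutaredoxin, gave 0.28 unwounded (adjusted p = 0.0495), kept in 6 of 17 other settings.

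SRXN1 (ENSG00000271303, chr20:646615-653200) encodes sulfiredoxin, which repairs overoxidized peroxiredoxins. It read 105, 136, 95.4, 129 and 120.5 in WT unwounded and 131, 200.2, 181, 148 and 160.0 in WT HDW replicates, and 284, 265, 290.3, 292 and 359 in GCN2KO unwounded and 253, 274, 255, 184 and 219 in GCN2KO HDW replicates. Unwounded genotypes did not overlap, while after HDW the lowest GCN2KO replicate lay below the highest WT replicate. The difference of 1.35 ± 0.11 unwounded (adjusted p = 3.33e-08) compared with 0.55 ± 0.12 after HDW (adjusted p = 0.00114). HDW raised SRXN1 in WT by 0.48 (adjusted p = 0.00546) and gave -0.31 in GCN2KO (adjusted p = 0.0546), and the interaction was -0.80 ± 0.17 (adjusted p = 0.00159). A readthrough gene on the same strand shares 90.7% of the SRXN1 exonic length, so its count is uncertain.

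Of the 6 peroxiredoxins, 5 were higher in unwounded GCN2KO, against 33.4% of all genes, and PRDX3 of the mitochondria was at -0.16 (adjusted p = 0.122). PRDX4 (ENSG00000123131, chrX:23664262-23686397), the peroxiredoxin of the endoplasmic reticulum, was the one DE gene. It read 1445, 1567, 1522, 1672 and 1588 in WT unwounded and 1635, 2004, 1918, 1614 and 1839.6 in WT HDW. GCN2KO read 4696, 5118, 8551, 5741 and 7566 unwounded and 5439.6, 4794, 4837, 4858 and 3494 after HDW, without overlap between genotypes and with the widest spread in GCN2KO unwounded. The genotype difference was 2.03 ± 0.14 unwounded (4.07-fold, adjusted p = 2.46e-09) and 1.38 ± 0.10 after HDW (2.6-fold, adjusted p = 3e-08), and the interaction was -0.64 ± 0.18 (adjusted p = 0.0115). HDW raised PRDX4 in WT by 0.20 (adjusted p = 0.00917), a call lost when all 20 libraries were fitted together. In GCN2KO the change was -0.42 (adjusted p = 0.0586), or -0.43 without GCN2KO unwounded replicate 1 and GCN2KO HDW replicate 5 (adjusted p = 0.0423). In unwounded cells PRDX2 was higher in GCN2KO by 0.91, PRDX1 by 0.42, PRDX6 by 0.32 and PRDX5 by 0.31, with adjusted p values of 1.54e-07, 8.45e-05, 0.000651 and 0.0039. After HDW 4 of the 6 were higher and 1 lower, against 35.9% and 35.8% of all genes. PRDX5 no longer differed detectably (-0.04, adjusted p = 0.408), and PRDX3 was lower by 0.21 (adjusted p = 0.000645). PRDX1 shares 29.8% of its exonic length with MMACHC on the opposite strand.

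Glutathione synthesis did not move as a block. GCLM, the modifier subunit of the rate-limiting glutamate-cysteine ligase, averaged 1739 ± 136 in WT and 2307 ± 100.3 in GCN2KO unwounded, and 934 ± 66.6 and 1804 ± 57.3 after HDW (normalized read counts, SD, n = 5). It was higher in GCN2KO by 0.41 ± 0.07 unwounded (adjusted p = 3.97e-05) and 0.95 ± 0.05 after HDW (adjusted p = 1.73e-09), and its interaction was 0.54 ± 0.08 (adjusted p = 3.09e-05). The catalytic subunit GCLC stood at 0.09 unwounded (adjusted p = 0.31) and was higher by 0.36 after HDW (adjusted p = 7.02e-07). GSS, which adds glycine in the last step, was lower in GCN2KO by 0.44 unwounded (adjusted p = 5.42e-05) and 0.58 after HDW (adjusted p = 3.88e-07). GSR, glutathione reductase, was lower by 0.44 unwounded (adjusted p = 1.75e-05), and after HDW the genotypes met at 2749 and 2719 (adjusted p = 0.832), WT having fallen by 0.71 and GCN2KO by 0.26.

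The glutathione peroxidases split by member. GPX2 (ENSG00000176153, chr14:64939152-64942746), an epithelial peroxidase at low counts here, read 59.6, 60.7, 44.7, 55.7 and 64.6 in WT unwounded and 38.8, 19.3, 29.5, 35.9 and 31.1 in WT HDW replicates. GCN2KO read 298, 212, 203, 196 and 210.2 unwounded, where replicate 1 was highest, and 88.4, 145, 90.6, 134 and 211 after HDW, where replicate 5 was highest, and no GCN2KO value fell into the WT range. The difference was 1.97 ± 0.15 unwounded (3.92-fold, adjusted p = 7.62e-09) and 2.10 ± 0.26 after HDW (4.3-fold, adjusted p = 4.87e-06). HDW lowered GPX2 by 0.88 in WT (adjusted p = 0.000645) and by 0.73 in GCN2KO (adjusted p = 0.0234), the latter call being lost without GCN2KO unwounded replicate 1 or GCN2KO HDW replicates 1 or 3. Without GCN2KO unwounded replicate 1 and GCN2KO HDW replicate 5 together the value was -0.85 (adjusted p = 0.00471). GPX4, the peroxidase of lipid peroxides in membranes, went down instead, from 8680.2 ± 280.2 in WT to 4895 ± 364 in GCN2KO unwounded, a log2 of -0.82 (adjusted p = 1.63e-08), and by 0.92 after HDW (adjusted p = 5.57e-10). GPX8 of the endoplasmic reticulum was higher by 0.64 unwounded (adjusted p = 1.79e-06) and stood at 0.04 after HDW (adjusted p = 0.501). The secreted GPX3 was higher in both states, by 0.63 and 0.74 (adjusted p = 0.00381 and 9.8e-06). GPX1 stood at 0.07 unwounded (adjusted p = 0.553) and was lower by 0.24 after HDW (adjusted p = 0.00585), and another annotated gene on the same strand shares 39.9% of its exonic length.

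None of the 8 glutathione transferases was DE in any comparison. Of all genes, 16.4% were DE between genotypes unwounded and 14.9% after HDW. After HDW against unwounded, 4.17% were DE in WT and 0.671% in GCN2KO. With 8 genes, a count of 0 lies near these shares. In unwounded GCN2KO, GSTM3 and MGST3 were higher by 0.68 and 0.52 (adjusted p = 0.000423 and 0.000285). GSTK1, the transferase of mitochondria and peroxisomes, was lower by 0.67 unwounded and 0.54 after HDW (adjusted p = 6.07e-07 and 2.94e-08). GSTP1, the most abundant transferase at 15474 normalized reads per kb of exon in WT unwounded, was lower by 0.17 and 0.36 (adjusted p = 0.0441 and 1.91e-06), the first kept in 8 of 17 other settings. GSTO1 separated the genotypes after HDW, at 1118 to 1218 in GCN2KO against 1741 to 2096 in WT (log2 -0.69, adjusted p = 3.9e-08), and overlapped before it (-0.20, adjusted p = 0.15). MGST2 was lower by 0.26 and 0.25 (adjusted p = 0.0396 and 0.0134), the first kept in 10 of 17 other settings, and MGST1 and GSTM4 passed neither test of genotype. The GSTM genes are close paralogs whose reads can be split between copies.

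Catalase, which splits hydrogen peroxide in peroxisomes, was lower in GCN2KO in both states. CAT averaged 1557 ± 145 in WT and 789 ± 111 in GCN2KO unwounded, and 844 ± 28.8 and 595 ± 49.5 after HDW (SD, n = 5), so WT after HDW and GCN2KO before it overlapped. It was lower in GCN2KO by 0.97 unwounded (adjusted p = 1.58e-07) and 0.51 after HDW (adjusted p = 2.61e-06), and HDW lowered it by 0.89 in WT (adjusted p = 6.84e-09) and 0.40 in GCN2KO (adjusted p = 0.0118). SOD1, the cytosolic superoxide dismutase, stood at -0.05 and -0.07 between genotypes (adjusted p = 0.622 and 0.171) and fell after HDW by 0.27 in WT and 0.27 in GCN2KO (adjusted p = 5.52e-05 and 0.0332), the latter call being kept in 9 of 18 other settings.

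The NADPH arm held small changes. ME1, the cytosolic malic enzyme, was higher in GCN2KO by 0.77 unwounded and 0.32 after HDW (adjusted p = 2.55e-07 and 0.000294). In the pentose phosphate pathway TALDO1 was higher by 0.29 unwounded (adjusted p = 0.000571), TKT was lower by 0.28 (adjusted p = 0.00794), and PGD did not differ detectably unwounded (adjusted p = 0.971) and was lower by 0.30 after HDW (adjusted p = 0.0112). PGD was highest in GCN2KO unwounded replicate 1 and in GCN2KO HDW replicate 5, the libraries with the lowest HMOX1.

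Of the regulators, the messages of both inhibitors were lower in GCN2KO. KEAP1 averaged 3118 ± 98.9 in WT and 2345 ± 148 in GCN2KO unwounded, a log2 of -0.41 (adjusted p = 2.41e-05), and -0.28 after HDW (adjusted p = 6.33e-05). BACH1 averaged 3375 ± 111 and 2460.0 ± 195 unwounded, a log2 of -0.45 (adjusted p = 1.45e-05), and -0.38 after HDW (adjusted p = 6.5e-05), without overlap in either state. NFE2L2 did not differ detectably unwounded (0.07, 95% interval -0.05 to 0.19) and was higher by 0.25 after HDW (adjusted p = 3.19e-05), WT having fallen by 0.30 (adjusted p = 1.24e-06). HNRNPA3 on the opposite strand shares 38.4% of the NFE2L2 exonic length. These are mRNA levels, and NRF2 is known to be set mainly by protein turnover.

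Promoter windows of RefSeq on GRCh38.p14, from 250 bases before to 50 after each start, were at hand for 41 of the 50 members. None was held for GSS, GSR, MGST2, TXN2, PRDX1, PRDX6, SOD1, HMOX1 and FTH1. The antioxidant response element core, searched as TGACNNNGC on both strands, occurred in the windows of 9 of the 41 members (22.0%) and of 16.1% of all 27305 genes. These members, SOD2 among them, held from 1 to 4 windows each, and the shares were not adjusted for the number of windows. The ATF4-type core TGATGNAA occurred in 1 of the 41, GPX8, and in 4.46% of all genes. The other members with an antioxidant response element match were PGD, GSTO1 and MGST1. The upstream matches of 6 members are shown, with the nearer one of KEAP1, because they include GPX2 and TXNRD1, which were DE, the ligase subunit GCLM and the inhibitor KEAP1. Each line runs along the gene's own strand, and capitals mark the match, which reads as the core on the opposite strand where it ends in TCA.
TXNRD1, chr12:104215670-104215698, plus strand: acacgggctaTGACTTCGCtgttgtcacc
TXNRD1 second start, chr12:104286920-104286948, plus strand: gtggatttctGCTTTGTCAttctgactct
GPX2, chr14:64942849-64942877, minus strand: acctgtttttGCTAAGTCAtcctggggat
GCLM, chr1:93909446-93909474, minus strand: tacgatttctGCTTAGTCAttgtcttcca
ME1, chr6:83431170-83431198, minus strand: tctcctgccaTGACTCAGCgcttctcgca
GSTP1, chr11:67583736-67583764, plus strand: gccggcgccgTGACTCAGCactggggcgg
KEAP1, chr19:10502784-10502812, minus strand: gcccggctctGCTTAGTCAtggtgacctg
Members with a match moved in both directions in GCN2KO. In both states TXNRD1, GPX2, GCLM and ME1 were higher and GSTP1 and KEAP1 lower. GSTO1 and PGD passed as lower only after HDW, and MGST1 passed in neither state. The letters were not in the windows of NQO1, SRXN1, OSGIN1, AKR1C1 or FTL, which says nothing of elements farther away.

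HDW against unwounded asked what wounding did within each genotype. In WT, 5 members rose and 29 fell, against 26.1% and 25.2% of 15348 genes, and 2 were DE, AKR1C3 and SLC40A1, both lower, against 4.17% of all genes, 2.62% higher and 1.55% lower. In GCN2KO none rose and 22 fell, against 11.9% and 10.8% of 15791 genes, and SLC40A1 was the 1 DE member, lower, against 0.671% of all genes, 0.475% higher and 0.196% lower. The count of 0 is from edgeR's quasi-likelihood test, where 1 member, HMOX1, was higher at an unadjusted p under 0.05, and DESeq2 also gave 0. The median log2 fold change of the members was -0.16 in WT and -0.23 in GCN2KO, where all genes had a median of 0.00 in both. Values of HDW and unwounded did not overlap for 1 member upward and 21 downward in WT, against 19.2% and 17.7% of genes, and for 0 upward and 16 downward in GCN2KO, against 7.52% and 7.65%. The fallers in both genotypes numbered 15, against 5.97% of the 14899 genes tested in both, and 2 members, GPX8 and ME1, passed in opposite directions, against 2.17%. The count of fallers in GCN2KO was 13 without GCN2KO HDW replicate 3, where 887 of 15955 genes fell. Without GCN2KO unwounded replicate 1 and GCN2KO HDW replicate 5 together, 21 members fell and 2 rose, where 1415 of 15816 genes fell and 1490 rose. With all libraries 1706 of 15791 genes fell.

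**Figure D3:**
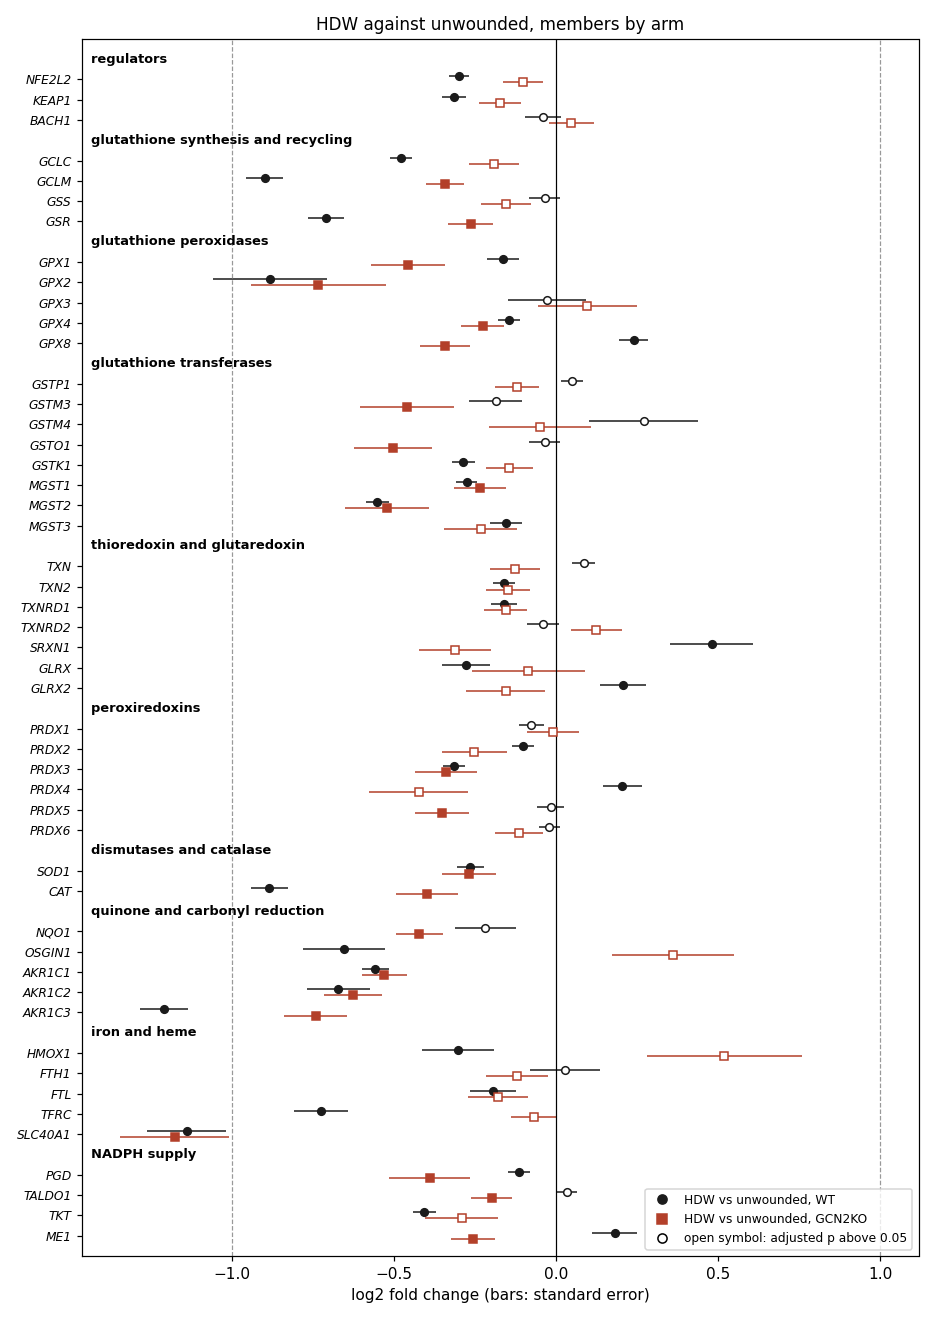
Log2 fold change of HDW against unwounded for the 49 members, grouped by arm, in WT (circles) and GCN2KO (squares). Bars are standard errors from edgeR with 5 libraries per group and open symbols did not pass an adjusted p of 0.05. Most symbols lie left of 0, and SLC40A1 is beyond the dashed line at -1 in both genotypes.

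The members that fell in WT came from every arm. In WT, GCLM fell by 0.90, GPX2 by 0.88, CAT by 0.89, TFRC by 0.73, GSR by 0.71, MGST2 by 0.55, GCLC by 0.48 and TKT by 0.41 on the log2 scale, all with adjusted p values at or below 0.000645. The 5 that rose in WT were SRXN1 at 0.48, GPX8 at 0.24, GLRX2 at 0.21, PRDX4 at 0.20 and ME1 at 0.18, with adjusted p values from 0.000298 to 0.0385, and GLRX2 passed in 9 of 17 other settings. Only 3 rose when either WT unwounded replicate 3 or WT HDW replicate 3 was left out. In GCN2KO the largest falls after SLC40A1 were those of AKR1C3 and GPX2, and others included MGST2 at -0.52, GSTO1 at -0.51, GPX1 at -0.46 and GSTM3 at -0.46. Of the 22 fallers in GCN2KO, TALDO1, SOD1, MGST1, GSTM3 and PGD passed in at most 10 of 18 other settings.

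A fit of all 20 libraries tested whether the change after HDW differed between genotypes. The interaction passed for 8 members with a higher value in GCN2KO and 7 with a lower one, against 11.2% and 12.5% of 16536 genes, and was DE for 1, against 3.31%. The 8 were NFE2L2, GCLC, GCLM, GSR, CAT, OSGIN1, AKR1C3 and TFRC, and each of these fell after HDW in WT. Of them GCLM, GSR, CAT and AKR1C3 also fell in GCN2KO, by less, while the others did not pass there. The 7 were GPX8, GSTO1, SRXN1, PRDX4, PRDX5, TALDO1 and ME1. None of these passed as lower in WT, where GPX8, SRXN1, PRDX4 and ME1 rose, and GPX8, GSTO1, PRDX5, TALDO1 and ME1 fell in GCN2KO. The interaction is the change in GCN2KO minus the change in WT, from the same libraries. The directions in WT of the 8 and the 7 are thus in part fixed by how they were picked. The fall of TALDO1 in GCN2KO passed in 8 of 18 other settings and that of ME1 in 16, and the rise of ME1 in WT in 11 of 17. The NFE2L2 interaction of 0.18 (adjusted p = 0.0463) passed in 8 of 27 other settings, TALDO1 in 26 and the other 13 in all 27.

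In WT unwounded cells the most abundant members per kb of exon were FTH1, FTL, GSTP1 and PRDX5, at 18457, 16235, 15474 and 15047 normalized reads per kb. SLC40A1, GSTM4 and OSGIN1 stood at 26.9, 21.8 and 11.7. In unwounded GCN2KO cells FTL and FTH1 led at 36405 and 32116, followed by PRDX5 at 18614. Summed over the 5 genes of the iron and heme arm, the level was 35156 ± 2079 in WT and 70091 ± 4509 in GCN2KO unwounded, and 33343 ± 5416 and 62967 ± 8121 after HDW (reads per kb, SD, n = 5), most of it ferritin. The 5 glutathione peroxidases summed to 10015 ± 259 in WT and 8552 ± 1169 in GCN2KO unwounded, where the libraries overlapped, and to 9111 ± 336 and 6546 ± 396 after HDW.

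A further list of 74 genes of the same pathways gives the setting. In unwounded cells 28 of the 66 tested were higher in GCN2KO and 21 lower, against 33.4% and 33.1% of all genes, and after HDW 27 and 21 of 67, against 35.9% and 35.8%. Those that were DE and higher in unwounded GCN2KO were the glutathione-degrading CHAC1 (2.92) and CHAC2 (1.56), both subunits of the cystine importer, SLC7A11 (2.87) and SLC3A2 (1.25), isocitrate dehydrogenase IDH1 (1.55), the conjugate exporter ABCC2 (1.30), the coenzyme Q reductase AIFM2 (1.17), SESN2 (1.09) and the methionine sulfoxide reductase MSRB3 (1.09). Those that were DE and lower were the thioredoxin inhibitor TXNIP (-2.47), CBR3 (-1.50), GGT1 (-1.26), TXNRD3 (-1.15), PIR (-1.12) and GSTA4 (-1.07). After HDW the DE genes were GSTM2 (1.53), ABCC2 (1.98) and IDH1 (1.25) among the higher, and TXNIP (-2.52), CBR3 (-2.39), TXNRD3 (-1.47), ETHE1 (-1.28), PIR (-1.27), PGLS (-1.14) and GGT1 (-1.09) among the lower. GSTM2 had at most 20.1 normalized reads in any library.

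SLC7A11 supplies the cystine for glutathione and read 622 to 1646 in WT before HDW and 2902 to 4772 after it, and 8053 to 9456 and 6776 to 7637 in GCN2KO. It rose after HDW in WT by 1.63 (adjusted p = 1.27e-05) and fell by 0.26 in GCN2KO (adjusted p = 0.0157), and the interaction was -1.90 ± 0.25 (adjusted p = 5.93e-06). CHAC1 rose in WT by 2.23 (adjusted p = 2.59e-08) and gave 0.10 in GCN2KO (adjusted p = 0.231), with an interaction of -2.15 (adjusted p = 1.9e-08). In WT 27 of the 67 tested rose after HDW and 26 fell, against 26.1% and 25.2% of all genes, with GSTA4 (-1.34), AKR1B10 (-1.19) and ABCC2 (-1.05) DE and lower. In GCN2KO 5 of 67 rose and 19 fell, against 11.9% and 10.8%, and GSTM2 was DE at 1.33. Its interaction was 1.74 (adjusted p = 0.0361). The SLC7A11 mRNA thus rose in WT after HDW, while the mRNAs of both subunits of glutamate-cysteine ligase, GCLC and GCLM, fell there. These are mRNA levels. By immunoblot, the study reported less SLC3A2 protein in GCN2KO whether wounded or not. It also reported partly reduced SLC7A11 protein in wounded GCN2KO cells, despite the higher mRNAs.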

How the data were processed

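RNA-seq was performed on WT and GCN2KO NTERT cells, unwounded or 6 h after HDW, with 5 libraries in each of 4 groups. Per the submitters' processing notes and the study's methods, reads were trimmed with Trimmomatic, aligned to GRCh38 with STAR, and uniquely mapped exonic reads were counted with featureCounts. The annotation release and strand setting were not given in the sources used here. Each library has its own deposited table of raw read counts, to which the authors applied no normalization. Identifiers were matched to GENCODE 44, which named 56410 of the 57500.

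Counts were scaled by TMM and tested with edgeR 4.0.16 (quasi-likelihood test, R 4.3.3) after its expression filter (minimum count 10, minimum total 15). Each pairwise comparison used its own 10 libraries and the interaction used all 20. P-values were adjusted by the Benjamini-Hochberg method over all genes tested. A gene passed at an adjusted p of at most 0.05 and was DE where it also changed by a log2 of 1 or more either way, as the study defined it. The pairs of genotype comparisons share no samples, nor do the pairs of HDW comparisons, while a genotype and an HDW comparison share a group. Members DE in any test are given in every sample, and other members by mean, SD, range or fold change. The members and lists were chosen with earlier results of these data known. The fits were tested on simulated data. Alternatives were DESeq2 1.42.0, DESeq2 size factors, library size alone, other filters, all 20 libraries in one fit, a replicate block and leaving out each library. Leaving out GCN2KO unwounded replicate 1 and GCN2KO HDW replicate 5 together was chosen after seeing the data. Tables and plots were made with Python 3.11.15, pandas 2.3.3, numpy 2.4.6 and matplotlib 3.10.9.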

Additional observations from a re-analysis of the deposited data

Results flagged for a closer look

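In 17 of 196 groups of 5 libraries (8.67%), 1 library of a member lay apart from the other 4 by Dixon's criterion, where chance alone gives about 1 group in 20. Values are normalized read counts. GCN2KO HDW replicate 5 held BACH1 at 2728 against 2450.3 to 2491 in the others, GPX8 at 2117 against 1817 to 1894 in the others, PRDX2 at 3733 against 4589 to 4914 in the others and SOD1 at 2150.0 against 2289.6 to 2327 in the others. WT unwounded replicate 1 held GSS at 1471 against 1638 to 1670.4 in the others and GSTP1 at 26039 against 27430.1 to 27755 in the others. GCN2KO unwounded replicate 1 held GPX2 at 298 against 196 to 212 in the others and PGD at 6213 against 4142 to 4699 in the others. GCN2KO HDW replicate 4 held GPX4 at 3773 against 4199 to 4345 in the others. WT HDW replicate 2 held MGST1 at 5812 against 6112 to 6201 in the others and TFRC at 5342 against 3677 to 4058 in the others. WT HDW replicate 5 held TXNRD2 at 517 against 454 to 465 in the others, PRDX3 at 3288 against 3030.4 to 3095 in the others, PRDX6 at 5113 against 4744 to 4804 in the others and HMOX1 at 70.9 against 90.3 to 94.7 in the others. GCN2KO unwounded replicate 5 held SRXN1 at 359 against 265 to 292 in the others. GCN2KO unwounded replicate 3 held PRDX6 at 7226 against 5662 to 6037 in the others.

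The change after HDW differed between the genotypes for 15 members by the interaction term of edgeR's quasi-likelihood fit. On the log2 scale, as the change in GCN2KO minus the change in WT, the higher values were NFE2L2 0.18, GCLC 0.28, GCLM 0.54, GSR 0.43, CAT 0.47, OSGIN1 1.00, AKR1C3 0.45 and TFRC 0.64. The lower values were GPX8 -0.60, GSTO1 -0.49, SRXN1 -0.80, PRDX4 -0.64, PRDX5 -0.35, TALDO1 -0.25 and ME1 -0.45. NFE2L2 passed in 8 of 27 other settings.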

How the results depend on the processing

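Of 384 other values of the member counts, 355 stayed within 1.5 times and 29 did not. With library size alone, DE lower members in unwounded GCN2KO against WT numbered 2, not 1, and members that rose in WT after HDW numbered 3, not 5, also with all 20 libraries in one fit. With a mean of at least 50 counts SLC40A1 was not tested, so DE lower members became 0 in GCN2KO against WT after HDW and 0 after HDW in GCN2KO. Members that rose in GCN2KO after HDW numbered 1, not 0, with no filter and in the fit of all 20. The DE interaction, OSGIN1, became 0 with no filter, with a mean of at least 50 counts and with a replicate block. The replicate block lowered the fallers in GCN2KO from 22 to 13, and over all 15791 genes tested from 1706 to 882. Replicate numbers did not pair the samples: same-numbered libraries correlated at -0.28 to 0.106, and 3 of 20 correlated best with their own number.

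Leaving out 1 library gave 1 to 2 DE lower members unwounded (2 without WT replicate 4 or GCN2KO replicates 1, 3 or 5), 3 to 6 risers in WT, 0 to 2 risers in GCN2KO (2 without GCN2KO HDW replicate 5, and 2 without both that and GCN2KO unwounded replicate 1), 13 to 26 fallers in GCN2KO (13 without GCN2KO HDW replicate 3) and 0 to 1 DE interactions. Over all genes, those that fell in GCN2KO numbered 887 to 2185 when 1 library was left out, against 1706 with all libraries.

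Among the 13 members DE in any test, signs reversed in values that passed neither way. Other members are not listed, and some of them also reversed, such as MGST1 between genotypes after HDW in 9 of 17 settings. GLRX after HDW in GCN2KO ran from -0.20 to 0.042 when a library was left out. The interaction ran from -0.098 to 0.26 for GPX2, -0.040 to 0.027 for TXNRD1 (0.057 with library size alone), -0.023 to 0.054 for AKR1C1 (-0.015 without both libraries), -0.053 to 0.073 for FTL (-0.0036 with no filter, -0.0068 with a mean of at least 50 counts) and -0.12 to 0.029 for SLC40A1 (0.014 with library size alone). Under library size alone the interaction passed for 2477 genes higher and 1510 lower, against 1851 and 2075 with TMM, and for 8 and 7 members in both. The cause of these changes was not tested. Depth limits GPX2, OSGIN1, HMOX1, SRXN1 and SLC40A1 most, the DE members with the fewest reads in WT.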
